A study of Homo sapiens with 4 samples.

Results

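The EGF family ligands are the secreted growth factors that activate the ERBB receptors, and 8 of their genes, EREG, AREG, HBEGF, TGFA, BTC, EPGN, EGF and NRG1, were taken by symbol from the 23228 genes counted in each sample. RNA sequencing was performed on ES2 cells, a human ovarian cancer cell line, which were grown in phenol red-free medium with charcoal-stripped serum and treated for 24 h with vehicle or with 100 μM liquiritigenin (Liq), a plant flavanone that the study uses as an ERβ agonist. There were 2 samples in each group, named vehicle 1, vehicle 2, Liq 1 and Liq 2. The labels do not say whether the 2 samples of a group came from separate cultures, so a p-value here measures only the spread between these samples, which may be technical, and all of them come from 1 cell line.

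EGF family ligands are made as precursors that span the membrane, and metalloproteases of the ADAM family cut them free. Epiregulin (EREG), amphiregulin (AREG), HB-EGF (HBEGF), TGF-α (TGFA), betacellulin (BTC), epigen (EPGN) and EGF bind the receptor EGFR, some of them also ERBB4, whereas neuregulin 1 (NRG1) binds ERBB3 and ERBB4. Ligand binding pairs the receptors and turns on the RAS-ERK cascade, and several of the ligand genes are themselves induced by ERK, so that a cell can stimulate itself. In the ovary, epiregulin, amphiregulin and betacellulin relay the luteinizing hormone signal within the follicle, and HB-EGF is known as a growth factor of ovarian tumor cells.

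The 250 bases before the annotated start are shown for the ligand gene that changed with Liq (EREG), for its nearest downstream neighbour in the same gene cluster (AREG), and for the ligand gene with the highest level among those that could be measured (HBEGF). They are RefSeq sequences on build GRCh38.p14, from a table in which 7 of the 8 genes were matched (all but NRG1), and are written 5′ to 3′ with capitals marking matches to the motifs searched:
EREG (chr4:74364895-74365144, plus strand): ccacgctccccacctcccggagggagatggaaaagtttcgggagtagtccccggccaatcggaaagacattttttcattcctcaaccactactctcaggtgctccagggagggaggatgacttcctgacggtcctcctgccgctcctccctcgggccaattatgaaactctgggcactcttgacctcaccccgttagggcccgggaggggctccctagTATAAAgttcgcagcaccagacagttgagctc
AREG (chr4:74444886-74445135, plus strand): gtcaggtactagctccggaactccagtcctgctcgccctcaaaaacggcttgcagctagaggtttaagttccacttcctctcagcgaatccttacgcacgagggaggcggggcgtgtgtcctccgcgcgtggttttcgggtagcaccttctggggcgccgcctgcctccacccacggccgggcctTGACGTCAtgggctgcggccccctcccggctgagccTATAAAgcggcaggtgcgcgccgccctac
HBEGF (chr5:140346604-140346853, minus strand): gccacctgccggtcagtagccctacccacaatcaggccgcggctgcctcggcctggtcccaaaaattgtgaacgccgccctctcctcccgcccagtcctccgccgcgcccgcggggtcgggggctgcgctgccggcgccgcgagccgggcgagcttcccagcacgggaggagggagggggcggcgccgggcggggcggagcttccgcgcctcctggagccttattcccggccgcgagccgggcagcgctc

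The motifs searched were TGACTCA (AP-1), TGACGTCA (the cyclic AMP response element, CRE), TGACNNNGC (the core of the antioxidant response element) and the NF-κB motif on both strands, and TATAAA (the TATA box) on the strand of the gene. The capitals in the EREG promoter are a TATA box at positions -32 to -27 from the start. AREG had a TATA box at -29 to -24 and EPGN had one at -29 to -24, whereas 6.80% of the 35116 promoter regions of this length in the table held that motif. The other capitals in AREG are a CRE at -65 to -58, a motif found in 1.65% of all regions. HBEGF matched none of these motifs, and its region had a GC content of 76.4%, against 58.0% in EREG and a median of 58.0% over all regions. Among the members not shown, EGF had an AP-1 match at -17 to -11, which overlaps an antioxidant response core at -19 to -11, and NF-κB matches lay in 1 of the 2 TGFA regions and in BTC. AP-1 matches occurred in 4.2% of all regions, antioxidant response cores in 10.9% and NF-κB matches in 9.96%. No NF-κB, AP-1 or antioxidant response motif was matched in the EREG region, which says only that these letters were absent from this window.

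The 4 libraries held between 34573053 and 48933893 reads on genes. Of all tallied entries, 35.6% to 36.2% were left out of the counts as aligned to more than 1 place. A read with several alignments may be tallied more than once, so these may not be shares of reads. Levels are given as counts-per-million (CPM), scaled to library sizes after TMM normalization, and 3 reads corresponded to 0.0598 to 0.0844 CPM. The 2 samples of a group differed by more than counting noise (chi-square per degree of freedom 6.56 for vehicle and 11.6 for Liq), so none were merged. The labelled ovarian cancer line carried epithelial and ovarian markers only in part. KRT7, KRT8 and KRT18 were expressed, whereas CDH1 had 0 counts in every sample, EPCAM and KRT19 had 1 to 3, and the mesenchymal gene VIM stood at 7479 ± 178 CPM in vehicle (SD, n = 2). Of 6 ovarian and Müllerian markers, only PAX8 (1.21 CPM in vehicle) and WT1 (4.46 CPM) passed the filter on low counts, and SOX17 and EMX2 were at 0. Leukocyte markers had at most 11 counts in any sample. Of 4 endothelial markers, CDH5 was at 51.8 CPM in vehicle, and PECAM1 and VWF had at most 10 counts. PAX8 (log2 fold change -1.34), WT1 (-0.68) and the endothelial gene KDR (-0.79) were lower with Liq (adjusted p = 0.002137, 0.002849 and 0.006026, edgeR). Their part in the results below was not tested.

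Of the 8 ligand genes, 5 had enough reads to be compared between the groups, namely HBEGF, EREG, NRG1, EGF and BTC. Genes were called where Liq and vehicle differed at least 1.5-fold and the Benjamini-Hochberg adjusted p was under 0.05, using the quasi-likelihood test of edgeR on all 13546 genes that passed the low-count filter. By this rule 1 of the 5, EREG, fell with Liq and 0 rose, while 6.45% of all tested genes were called, 2.16% downward and 4.29% upward. That split depended on the scaling, with 581 genes higher and 293 lower as reported here, against 354 higher and 393 lower after loess offsets along the expression level. Taking the p-value without adjustment, EREG was again the 1 ligand past the rule, beside 7.85% of all tested genes. The CPM of the groups did not overlap for 3 of the 5, EREG, HBEGF and EGF, as was the case for 61.7% of all tested genes. The median log2 fold change of the 5 ligands was -0.07, against 0.0062 over all tested genes. The remaining 3 members, AREG, TGFA and EPGN, did not pass the filter on low counts. Because whole cultures were sequenced, fewer cells expressing a gene and less RNA per cell cannot be told apart.

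**Figure D1:**
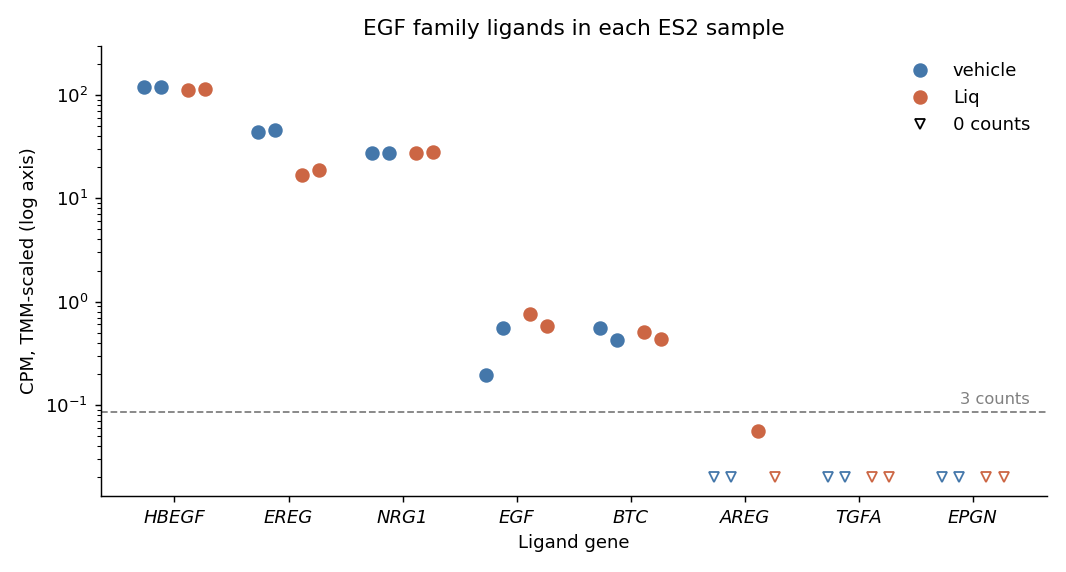
CPM of each EGF family ligand gene (log axis) in the 2 vehicle samples and the 2 Liq samples, 1 point per sample, with open triangles for samples at 0 counts and a dashed line at 0.0844 CPM, the level of 3 counts in the smallest library. EREG is the only tested ligand whose vehicle and Liq points stand well apart, at 44.1 and 46.3 against 16.8 and 18.7 CPM, and AREG, TGFA and EPGN lie under the dashed line in every sample.

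EREG, which encodes epiregulin, lies on chromosome 4 from 75230862 to 75254466 on the plus strand (hg19, equivalent to GRCh37, GENCODE annotation). It had 1812 and 1734 reads in vehicle 1 and vehicle 2, and 599 and 939 reads in Liq 1 and Liq 2. After scaling these were 44.1 and 46.3 CPM for vehicle against 16.8 and 18.7 for Liq. Both Liq samples were below both vehicle samples, and the gap between the groups was many times the gap within either one. The log2 fold change was -1.34 (SE 0.09, 95% interval -1.53 to -1.15, adjusted p = 3.225e-11, edgeR), a level 2.54-fold lower with Liq. Only 69 of the 13546 tested genes had a lower log2 fold change. Among the 9545 tested genes with a mean of at least 10 CPM, 15 did. Its exons overlapped no other gene in the files, and none of 574 windows of 100 bases in its exons had a second exact match in the genome, so its reads could be placed.

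HBEGF, on chromosome 5 from 139712428 to 139726188 on the minus strand, encodes HB-EGF, a heparin-binding ligand of EGFR and ERBB4. It had 4923 and 4444 reads with vehicle and 4002 and 5756 with Liq. The scaled levels were 119.7 and 118.7 CPM with vehicle, and 112.5 and 114.7 CPM with Liq. Both Liq samples lay just below both vehicle samples. The log2 fold change was -0.07 (95% interval -0.22 to 0.08, adjusted p = 0.5286, edgeR), so the interval ended well short of the change seen in EREG. Counting only the reads of these 2 genes, EREG supplied 26.9% and 28.1% with vehicle, but 13% and 14% with Liq, a ratio that does not depend on library scaling.

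NRG1 (chromosome 8 from 31496738 to 32713184, plus strand), the ligand of ERBB3 and ERBB4, had 1124 and 1024 reads in vehicle and 968 and 1412 in Liq. Scaled, these were 27.3 and 27.4 CPM for vehicle against 27.2 and 28.1 for Liq, and the groups overlapped. Its log2 fold change was 0.02 (95% interval -0.17 to 0.20, adjusted p = 0.9075, edgeR). Of the other neuregulin genes, NRG2 had a mean of 4.06 ± 0.65 CPM with vehicle and of 4.53 ± 0.47 with Liq (SD, n = 2), and a log2 fold change of 0.16 (adjusted p = 0.5042, edgeR). NRG3 had 1 read in vehicle 2 and none elsewhere, and NRG4 had 0 reads in every sample.

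EGF and BTC were near the lower limit of the data. EGF (chromosome 4 from 110834039 to 110934922, plus strand), the founding member of the family, had 8 and 21 reads in vehicle and 27 and 29 in Liq. The scaled values were 0.195 and 0.561 CPM for vehicle against 0.759 and 0.578 for Liq, so that vehicle 1 stood apart from the other three samples. The log2 fold change was 0.82 with an interval of -0.01 to 1.65 (adjusted p = 0.1432, edgeR), and the gene was not called. This value rested on vehicle 1. Without vehicle 1 it was 0.23, and without vehicle 2, which leaves vehicle 1 as the only control, it was 1.74 and passed the rule (adjusted p = 0.03918, edgeR). BTC (chromosome 4 from 75669969 to 75719733, minus strand) had 23 and 16 reads in vehicle and 18 and 22 in Liq, or 0.559, 0.427, 0.506 and 0.438 CPM. The groups overlapped, and the log2 fold change of -0.08 had an interval of -0.84 to 0.67 (adjusted p = 0.8927, edgeR), which is too wide to tell a 1.5-fold change from none.

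**Figure D2:**
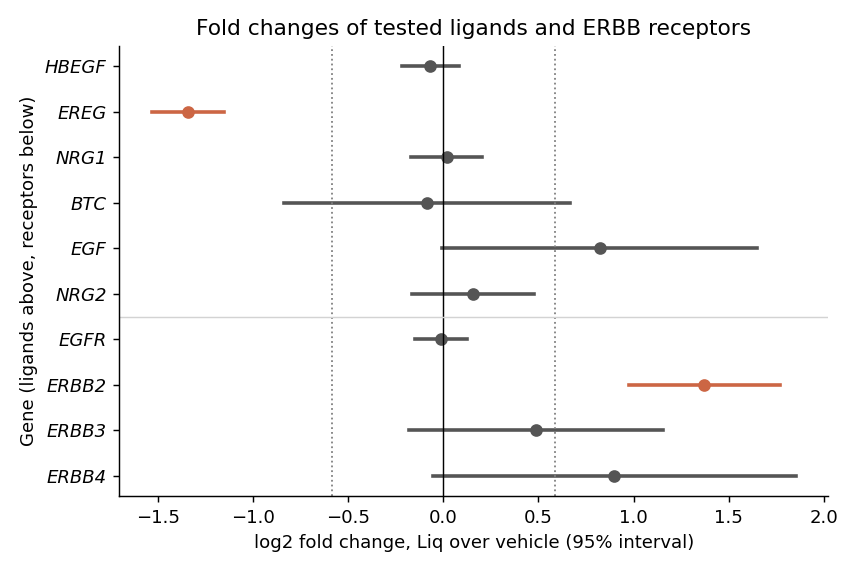
Log2 fold change of Liq over vehicle (points) with its 95% interval (lines) for the tested ligands and neuregulins, above the grey line, and the 4 ERBB receptors, below it. Orange marks genes called changed and dotted lines mark a 1.5-fold change. EREG (-1.34) and ERBB2 (1.37) are the genes called, while HBEGF, NRG1 and EGFR have narrow intervals around 0.

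TGFA (chromosome 2 from 70674416 to 70781325) and EPGN (chromosome 4 from 75174187 to 75182506) had 0 reads in all 4 samples. A count of 0 allows at most the level of 3 counts, which is 0.0598 CPM in the largest library and 0.0844 CPM in the smallest, for counting error only. No window of 100 bases in the exons of TGFA or EPGN had a second exact match in the genome. AREG (chromosome 4 from 75310853 to 75320722) had 2 reads in Liq 1 and 0 in the other samples, but this count could not measure the gene. The hg19 genome carries a near-identical copy, AREGB (chromosome 4 from 75480629 to 75490486), and HTSeq drops reads that align to more than 1 place. Of 167 windows of 100 bases starting in AREG exons, 134 (80.2%) had an exact match elsewhere and 167 matched elsewhere within 2 mismatches. No other member had an exact second match in any window. The level of AREG in ES2 cells is therefore unknown from these counts.

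Levels of different genes were compared per kilobase of exon, taking the union of annotated exons as the length. On this scale HBEGF stood at 39.9 ± 0.2 CPM per kb in vehicle (SD, n = 2), EREG at 7.91 ± 0.28 and NRG1 at 1.28 ± 0.0003. BTC was at 0.186 ± 0.035 and EGF at 0.0495 ± 0.0340. In Liq the order was the same, with HBEGF at 38.0 ± 0.5, EREG at 3.11 ± 0.23, NRG1 at 1.30 ± 0.03, BTC at 0.178 ± 0.018 and EGF at 0.0876 ± 0.0168 CPM per kb. HBEGF made up 81.3% and 80.5% of the summed ligand level under vehicle, and 89.2% and 88.8% under Liq. The share of EREG was 15.7% and 16.4% in vehicle and 6.99% and 7.58% in Liq. The sum over the ligands was 49.3 CPM per kb in both vehicle samples, and it was 42.2 in Liq 1 and 43.2 in Liq 2. AREG, described above, entered these sums only with the 2 reads it was given. With the longest transcript as the length instead, mean vehicle levels were 50.55 CPM per kb for HBEGF, 9.79 for EREG and 2.18 for NRG1. The mean share of EREG was then 15.6% in vehicle and 7.06% in Liq. The SDs above do not cover this choice of length.

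**Figure D3:**
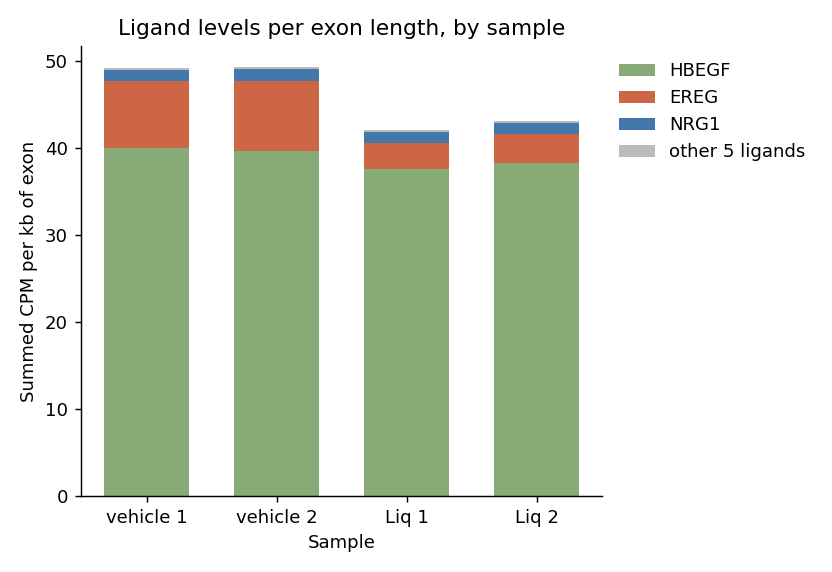
Ligand levels in CPM per kb of union exon length, stacked by gene in each of the 4 samples, with the bars starting at 0. HBEGF forms most of every bar (37.6 to 40.0), and the EREG segment is 7.71 and 8.11 for vehicle against 2.95 and 3.28 for Liq.

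EPGN, EREG, AREG and BTC lie in 1 cluster on chromosome 4, between MTHFD2L, a mitochondrial folate enzyme gene, and PARM1. EREG was the only gene of the interval that was called, but EPGN and AREG were not tested. BTC had 16 to 23 reads in each sample, too few to tell a 1.5-fold change from none. MTHFD2L, which ends 62.0 kb before the start of EREG, had 244 and 232 reads in vehicle and 181 and 241 in Liq, a log2 fold change of -0.30 (adjusted p = 0.1102, edgeR). BTC lies 439.1 kb beyond the start of EREG. PARM1, whose start is 627.4 kb from that of EREG, had 8 to 13 reads in each sample and a log2 fold change of 0.35 (adjusted p = 0.65, edgeR). The difference between EREG and its neighbours was not itself tested.

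**Figure D4:**
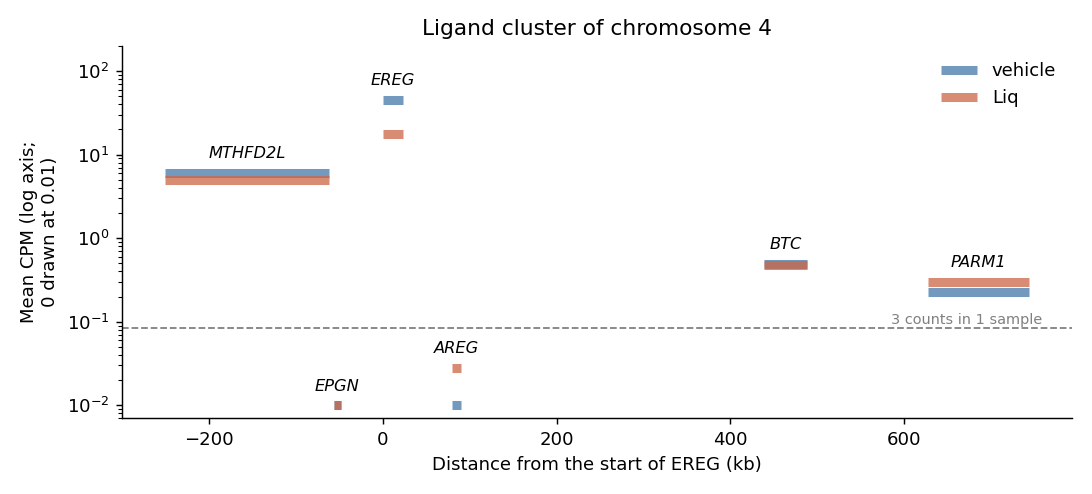
Mean CPM (log axis, 0 drawn at 0.01) of the genes from MTHFD2L to PARM1 in vehicle and Liq, against distance in kb from the start of EREG, each bar spanning its gene. EREG has the highest level and the widest gap between the groups (45.2 against 17.8 CPM), and EPGN and AREG lie under the level of 3 counts.

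All 4 ERBB receptors passed the filter, and 1 of them, ERBB2, rose with Liq, beside 4.29% of all tested genes called upward. EGFR, the receptor of epiregulin and HB-EGF, had 357.7 and 331.0 CPM with vehicle, against 337.4 and 344.6 with Liq, and the groups overlapped. Its log2 fold change was -0.01 (95% interval -0.15 to 0.12, adjusted p = 0.9022, edgeR). ERBB2, which has no known ligand and pairs with the other receptors, had 55 and 48 reads in vehicle and 128 and 162 in Liq, or 1.34 and 1.28 CPM against 3.60 and 3.23 CPM. Both Liq samples were above both vehicle samples, and the log2 fold change of 1.37 had an SE of 0.19 (adjusted p = 8.064e-06, edgeR). Its level remained low, at 0.331 ± 0.025 CPM per kb in Liq against 21.4 ± 0.3 for EGFR (SD, n = 2). ERBB3 and ERBB4, the receptors of NRG1, had 20 to 39 and 7 to 24 reads in each sample. Their log2 fold changes were 0.49 (adjusted p = 0.2916) and 0.90 (adjusted p = 0.1652, edgeR), with intervals of -0.18 to 1.15 and -0.06 to 1.85.

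Of 17 genes for the shedding and trafficking of ligands, 15 were tested and 0 were called, while 4 were higher and 4 lower at an adjusted p under 0.05 with changes under 1.5-fold (edgeR). The share of all tested genes past that adjusted p alone was 24.0%. ADAM17, the main sheddase of epiregulin, HB-EGF and amphiregulin, averaged 42.1 ± 0.2 CPM for vehicle against 51.4 ± 3.1 for Liq (SD, n = 2), which is 0.29 on the log2 scale (adjusted p = 0.01306, edgeR). RHBDF2, which encodes an iRhom that brings ADAM17 to the cell surface, had a log2 fold change of 0.44 (adjusted p = 0.001499, edgeR), and its relative RHBDF1 one of -0.31 (adjusted p = 0.02297, edgeR). TIMP3, an inhibitor of ADAM17, averaged 237.5 ± 3.7 CPM for vehicle against 176.4 ± 4.7 for Liq (SD, n = 2), with a fitted log2 difference of -0.43 (adjusted p = 4.482e-05, edgeR). Of 11 genes that restrain the receptors, 1 was called, the phosphatase gene PTPRJ, which rose from 28.5 ± 1.8 to 46.8 ± 2.1 CPM (SD, n = 2), or 1.64-fold (adjusted p = 1.088e-06, edgeR). This 1 gene is 9.09% of the list, near the 6.45% of all tested genes called. ERRFI1, a feedback inhibitor of EGFR that ERK induces, had a log2 fold change of -0.29 (adjusted p = 0.001499, edgeR). Of 16 genes for adaptors and the RAS-ERK core, 0 were called, and 3, GRB2, SHC1 and MAP2K1, were lower at an adjusted p under 0.05, with log2 fold changes of -0.24 to -0.29.

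Among 24 genes known to be induced by ERK signaling, 11 fell and 0 rose by the same rule, and the median log2 fold change was -0.56. The 11 were EGR1, EGR2, EGR3, FOS, FOSB, JUNB, IER2, IER3, DUSP6, SPRY4 and ETV4. This is 45.8% of the list, beside 2.16% of all tested genes called downward, and the list was put together with earlier results of these data known. Of the 24, 22 were lower and 2 higher with Liq, against 49.0% lower among all tested genes. EGR1, an immediate early transcription factor gene, had 120.4 and 133.7 CPM with vehicle against 34.3 and 31.4 with Liq, a log2 fold change of -1.95 (adjusted p = 1.826e-15, edgeR). DUSP6, the phosphatase that switches ERK off, went from 391.0 and 404.2 to 211.8 and 215.6 CPM, a log2 fold change of -0.90 (adjusted p = 1.232e-10, edgeR). IER3, SPRY4, which is a brake on receptor signaling, and JUNB had log2 fold changes of -0.91, -0.84 and -0.86. The log2 fold change of EREG was lower than those of all but 3 of the 24, EGR1, EGR2 and EGR3, and differences between genes were not tested. FOSL1, PHLDA1, MYC and CCND1, which are also ERK outputs, were not called (log2 fold changes of -0.12, -0.17, 0.18 and 0.03).

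**Figure D5:**
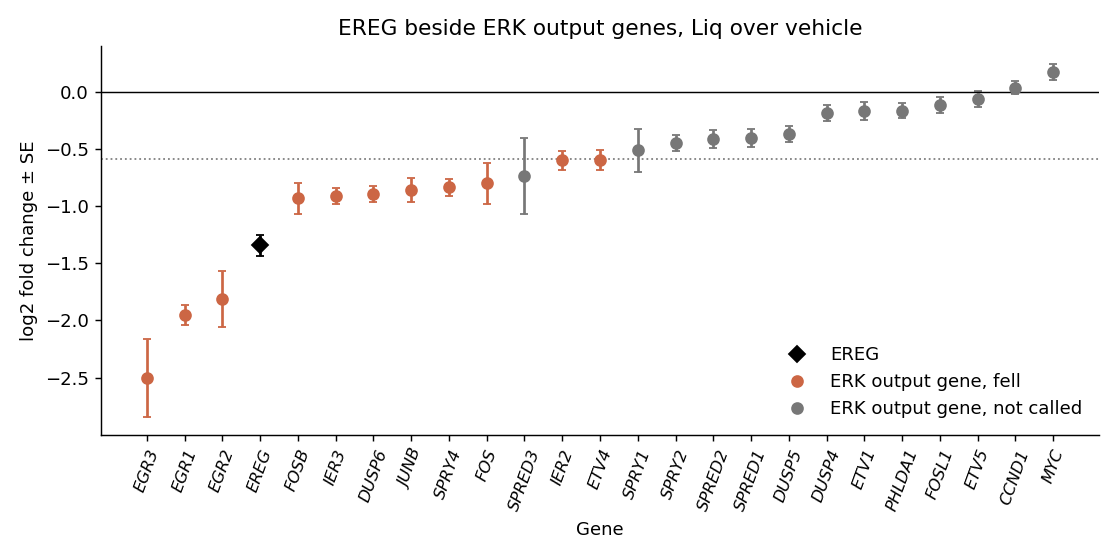
Log2 fold change of Liq over vehicle with its SE for EREG (black diamond) and 24 ERK output genes in order of size, orange where called lower and grey where not called, with a dotted line at a 1.5-fold decrease. EREG (-1.34) falls between EGR2 (-1.81) and FOSB (-0.93), and the list runs from EGR3 at -2.50 to MYC at 0.18.

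The genes whose pattern over the 4 samples was nearest to that of EREG were sought among 12225 tested genes with a mean of at least 1 CPM. The measure was the root mean square difference of log2 values after removing the mean of each gene. Before the log2 was taken, 0.25 was added to each CPM. The 3 nearest genes were CTSS (0.0342), which encodes the lysosomal protease cathepsin S, TXNIP (0.0546), a thioredoxin-binding protein, and PRDM1 (0.0570), a transcriptional repressor. CTSS averaged 2.50 ± 0.13 CPM for vehicle against 0.880 ± 0.052 for Liq (SD, n = 2). TXNIP went from 78.3 ± 0.6 to 32.3 ± 0.9 CPM, and PRDM1 from 3.84 ± 0.34 to 1.36 ± 0.22 CPM. The fitted log2 fold changes were -1.49 for CTSS, -1.28 for TXNIP and -1.47 for PRDM1, against -1.34 for EREG (edgeR). The added 0.25 shrinks the changes of genes at a low level, such as CTSS and PRDM1, more than that of EREG. With 2 samples per group, nearness by this measure rests mainly on the size of the change.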

How the data were processed

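RNA-seq data of 4 ES2 samples were used, with groups and replicate numbers taken from the titles in the labels and the Liq dose from the methods of the study. The authors made TruSeq libraries from total RNA, aligned reads to hg19 with TopHat2 2.0.8b and deposited raw HTSeq counts per gene symbol, whole numbers without normalization or pooling. The HTSeq version, the gene annotation and the strand setting are not given in the sources used here. Tally rows for reads on no gene or on several places stayed out of library sizes and tests.

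The tests used edgeR 4.0.16 in R 4.3.3 (filterByExpr at its default min.count of 10 and min.total.count of 15, TMM, glmQLFit and glmQLFTest over all 13546 genes kept, no replicate block, Benjamini-Hochberg adjustment). The SE is the log2 fold change over the square root of F. The fits were tested on simulated counts. An exact two-sided permutation test of a single gene could not give less than 0.3333 in this design, and the edgeR p-values borrow their estimate of spread from all genes. Exon lengths and positions are from the GENCODE annotation on GRCh37. Windows of 100 bases, 10 bases apart, were placed with minimap2 2.31.

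All 8 members are named. Of the pathway lists, all receptors and neuregulins and up to 5 called genes by smallest p were to be named, as were the 3 genes most like a called member. TIMP3, ADAM17, RHBDF1, RHBDF2, ERRFI1, GRB2, SHC1, MAP2K1, the further ERK output genes and the marker genes were named after their values were seen. Members and lists were chosen with earlier results of these data known. Alternatives were other normalizations and filters, DESeq2 1.42.0, the replicate block, other thresholds, each sample left out, the longest transcript as length and, added after seeing the data, loess offsets along the expression level (span 0.3).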

Additional observations from a re-analysis of the deposited data

How the results depend on the processing

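EREG was called lower under every normalization, filter, tool and left-out sample tried, with log2 fold changes of -1.42 to -1.27, and ERBB2, PTPRJ, EGR1, DUSP6, IER3, SPRY4, JUNB, CTSS, TXNIP and PRDM1 also kept their calls in those fits. At a fold of at least 2, PTPRJ, DUSP6, IER3, SPRY4 and JUNB were no longer called, and EREG was. The number of ligands called was 1 in all settings but 1, ranging from 1 to 2 with a sample left out, because EGF (log2 fold change 0.23 to 1.74 in those fits) was called without vehicle 2. EGF, ERBB4 and PARM1 were not tested where at least 10 counts were asked of every sample, and DESeq2 gave no adjusted p for ERBB4 and PARM1. Signs of genes near 0 turned, none of them called: BTC to 0.13 without vehicle 1 and 0.03 without Liq 2 (-0.26 to 0.13 with a sample left out), NRG1 to -0.0073 without Liq 2 (-0.0073 to 0.0403 with a sample left out), NRG2 to -0.0017 without vehicle 1 (-0.0017 to 0.32 with a sample left out), and EGFR to 0.0134 with upper-quartile normalization, 0.0695 with loess offsets and 0.0426 and 0.0002 without vehicle 1 or Liq 1 (-0.0702 to 0.0426 with a sample left out). Over all genes 874 were called, 537 with DESeq2 (224 lower), 3245 with no fold-change threshold, 328 at a fold of at least 2 and 659 to 979 with a sample left out. With no fold-change threshold, 8 shedding genes, 2 receptor brakes and 3 genes of the RAS-ERK core were called, and at a fold of at least 2, 0 receptor brakes and 3 ERK output genes. Upper-quartile normalization left 9 ERK output genes called. IER2 and ETV4 were just past the 1.5-fold limit in the main fit, each 1.514-fold lower. ERK output genes called ranged from 9 to 12 with a sample left out. The replicate number as a block gave EREG a log2 fold change of -1.35 and changed no call among the 21 genes refitted under the alternatives. Same-numbered samples deviated from their group means with a correlation of 0.0927 over genes. Counting noise in low-count genes lowers such a value, so it cannot tell whether these samples were paired. The titles give only numbers. EGF, BTC, ERBB3 and ERBB4, with 7 to 39 reads in a sample, are limited by depth.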
